A study of Oncorhynchus mykiss with 6 samples.

Results

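Among the known long non-coding RNAs (lncRNAs) of rainbow trout liver, 63 of 1498 (4.21%) had reads at one water temperature and none at the other. They were selected on their estimated read counts: 0 reads in all 3 libraries of one group, and 1 or more reads in at least 2 of the 3 libraries of the other. By this rule 30 lncRNAs were heat-only and 33 were control-only, or 3.81% and 4.19% of the 788 with a read in some library. Because the counts themselves chose them, their levels and folds are given below as a description, and nothing is concluded from a test of that contrast. The 1498 are the known RefSeq lncRNAs (XR identifiers) with a complete entry in every library, out of 4989 known and 5916 known and assembled transcripts in the longest tables. The control fish (Oncorhynchus mykiss, female, 150 days old) stayed at 18 °C, and the heat-stress fish, alike in sex and age, were brought from 18 °C to 24 °C in steps of 1 °C every 24 h. Each group had 3 libraries from liver RNA depleted of ribosomal RNA. The groups were held in separate tanks, so tank and temperature cannot be told apart. The labels' protocols speak of 12 fish and of mixed RNA but not of which fish went into which library. A library may therefore hold RNA of several fish, and the spread between libraries may be technical.

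LncRNAs are long transcripts with no recognised protein product. Many are made in small amounts and in few cell types, and some act on the chromatin, splicing or stability of neighbouring or distant genes, while most have no known role. An lncRNA gene often has several overlapping transcripts. Salmonids also descend from an ancestor whose whole genome was duplicated, so that many of their genes have a close copy elsewhere. A read that matches several transcripts is divided between them by estimating programs, which then report fractional counts. In liver tissue, fewer cells of a type and less RNA per cell cannot be told apart.

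From count, FPKM and length, the control libraries came to 27.9 to 29.97 M fragments (1 M is 1000000) and the heat libraries to 28.3 to 41.2 M. A count of 0 therefore allowed up to 0.0728 to 0.108 reads per M fragments in a single library, by a floor of 3 counts. Reads in at least one library were found for 788 of the 1498 lncRNAs, and 710 had none anywhere. The tables hold lncRNAs alone, so the liver label was not checked here against coding marker genes.

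Most of these one-temperature lncRNAs rested on a handful of reads. Summed over the 3 libraries of its group, the median heat-only lncRNA had 9.87 reads and the median control-only lncRNA had 8. Of the 63, 38 (60.3%) had 10 reads or fewer in all. Only 11 heat-only and 8 control-only lncRNAs had at least 1 read in every library of their group, and the other 44 were seen in 2 of 3. The sets differ most at the top: the heat-only reads summed to 4791, of which a single pair of transcripts held 89.3%, whereas all control-only reads summed to 514 and the leading pair held 30.9%. The matrix of reads shows these few bright rows above long tails of single-digit counts.

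**Figure D1:**
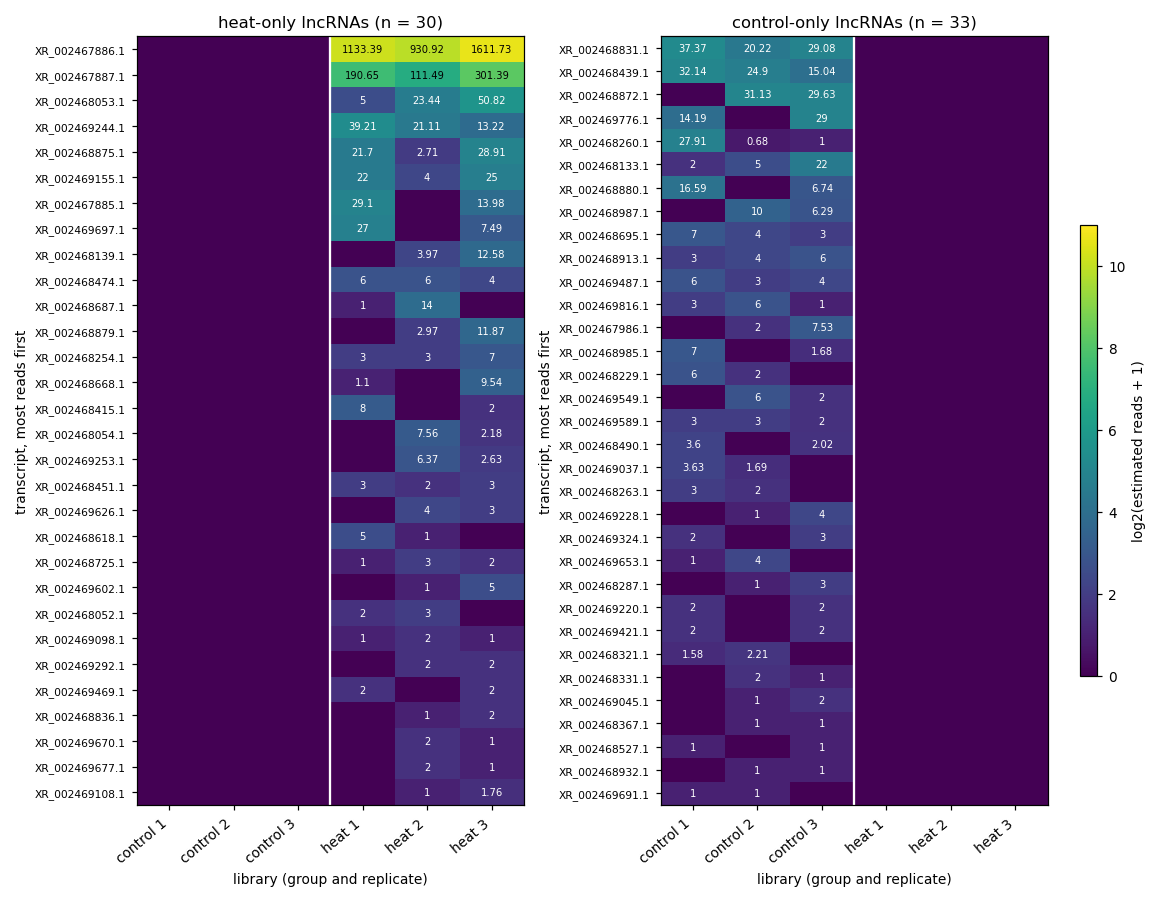
Estimated reads of the 30 heat-only (left) and 33 control-only (right) lncRNAs in each of the 6 libraries, with rows ordered by summed reads and colour giving log2(estimated reads + 1). Empty cells stand for 0 reads. In both sets most rows hold single-digit counts, while XR_002467886.1 reaches 930.92 to 1611.73 in heat.

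A stricter minimum reduced both sets. With at least 2 reads in each of 2 libraries, 21 heat-only and 20 control-only lncRNAs were left, with 3 reads 13 and 12, and with 10 reads 7 and 4. The heat libraries were deeper on average, so an equal minimum in reads per M fragments was also tried, set at 1 read in the shallowest library. It left 21 heat-only and 24 control-only lncRNAs. The order of the 2 sizes thus depended on the minimum used. Leaving out 1 library changed both sizes by construction, since it left fewer libraries to be absent from or to be present in. Nothing is therefore read from the order of the sizes there. The heat-only set held 48, 52 and 53 lncRNAs without control replicate 1, 2 or 3. It held 22, 16 and 14 without heat replicate 1, 2 or 3. The control-only set held 52, 49 and 66 without heat replicate 1, 2 or 3. Without control replicate 1, 2 or 3 it held 18, 17 and 14.

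**Figure D2:**
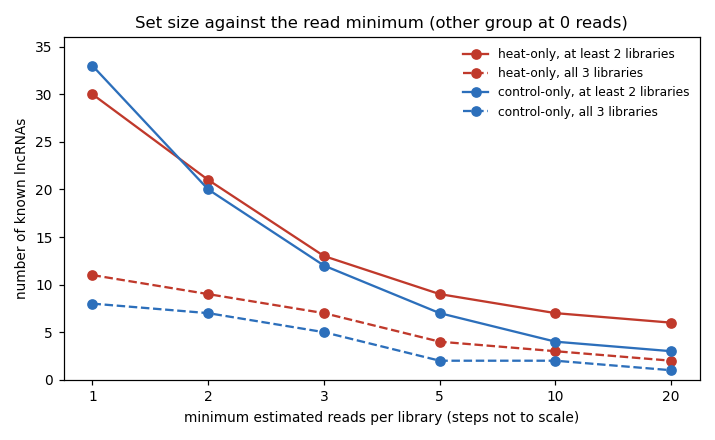
Number of heat-only (red) and control-only (blue) lncRNAs against the minimum of estimated reads per library, for reads in at least 2 libraries (solid) or in all 3 (dashed), with the other group at 0 reads. The solid lines start at 30 and 33 and fall to 6 and 3 at a minimum of 20 reads.

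Depth did not order the libraries within the heat set. Heat replicate 1, the deepest library, had reads for 19 of the 30 heat-only lncRNAs, heat replicate 2, the shallowest in its group, for 25, and heat replicate 3 for 27. Over all 1498 lncRNAs, heat replicates 1 to 3 had a value above 0 for 449, 473 and 493. That is the same order, so it is not particular to the members. Of the 19 seen in 2 libraries, 11 were seen in replicates 2 and 3, 5 in replicates 1 and 3, and 3 in replicates 1 and 2. In the control set the 3 libraries had reads for 23, 24 and 27 of the 33. Over all 1498 they had a value above 0 for 484, 496 and 490. The cause of these differences was not tested.

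The same rule was applied to the other 9 ways of setting 3 of the 6 libraries against 3, as a description without a test. These gave 38 to 52 transcripts on both sides together, with a median of 41.0, beside 63 for heat and control. A single side held 15 to 30 transcripts, beside 30 and 33. The 10 counts come from the same 6 libraries and are not independent. Transcripts with reads in exactly 1 library never enter the sets. A control library had 31 ± 2.65 of them (SD, n = 3) and a heat library 25.3 ± 5.51 (SD, n = 3). The difference, heat minus control, was -5.67, and the counts of the groups overlapped (p = 0.3 by an exact two-sided permutation test). With 3 against 3 the lowest possible p is 0.1, so the design could not pass 0.05.

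At the edge of the rule the values were small or came from a single library. The 4 heat-only lncRNAs with the fewest reads were XR_002469108.1 with 2.76 reads in all and XR_002468836.1, XR_002469670.1 and XR_002469677.1 with 3 each. The corresponding control-only lncRNAs, XR_002468367.1, XR_002468527.1, XR_002468932.1 and XR_002469691.1, had 2 reads each. Just outside stood 76 transcripts with 0 reads in every control and 1 or more reads in a single heat library, and 96 with 0 in heat and 1 or more in a single control library. A few of the control-side transcripts had a value under 1 read in a second control library. The highest of them were XR_002469076.1 with 30.9 reads in heat replicate 1, and XR_002469364.1, XR_002468860.1 and XR_002468826.1 with 29.23, 23.72 and 22.13 reads in heat replicate 3. On the control side they were XR_002469432.1 and XR_002469561.1 with 34.08 and 21.02 reads in replicate 3, XR_002469109.1 with 21.0 in replicate 2 and XR_002467907.1 with 19.76 in replicate 1. These highest cases exceed most members in reads, so a transcript can be left out for its number of libraries despite its level. The other transcripts seen in a single library are not described here. The read minimum also moved the edge, as given above.

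The heat-only set was led by neighbours in identifier number. XR_002467886.1 had 0 reads in each control library and 1133.39, 930.92 and 1611.73 reads in heat replicates 1 to 3. That is 16.4 ± 3.36 FPKM (SD, n = 3; fragments per kilobase and per M fragments, the authors' own scaling). XR_002467887.1 had 190.65, 111.49 and 301.39 reads, or 2.57 ± 0.955 FPKM. All 3 heat libraries were high for both. The next number down, XR_002467885.1, had 29.1, 0 and 13.98 reads, so heat replicate 2 lacked it. By estimated counts, against a floor of 3 counts over the controls and scaled by library totals, XR_002467886.1 was at least 976-fold higher in heat. XR_002467887.1 was at least 160-fold higher. Here and below, such limits cover the counting error of the group at 0 only. They take the reads of the other group as estimated, and do not cover reads divided with neighbouring transcripts. Without control replicate 2 fewer control fragments were searched, and the limits were 637-fold and 105-fold.

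The following 2 numbers of that run, XR_002467888.1 and XR_002467889.1, had reads at both temperatures and are not members. In edgeR's quasi-likelihood test XR_002467889.1 was called higher in heat (log2 fold change 8.563, adjusted p 0.00719). XR_002467888.1 was not called (5.769, adjusted p 0.0724). The 5 transcripts together had 15.92, 14.49 and 0 reads in control replicates 1 to 3 and 3671.27, 2512.39 and 5451.43 in heat replicates 1 to 3. Per M fragments that is 0.352 ± 0.308 in controls and 106 ± 29.3 in heat (SD, n = 3). This sum includes the 3 selected members, so part of the difference comes from the rule. The run as a whole was therefore low, not absent, in 2 of the 3 control libraries, while control replicate 3 had none of its reads. No gene name was found for any of the 5 in the reference table. Their sums were not whole numbers in any library where they had reads. For the 3 members among them, no stretch of up to 8 neighbours in the list had whole sums either. Whether reads were divided among the 5 or with other transcripts was not tested.

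A second run of neighbours was delimited by membership, so it was heat-only throughout by construction. XR_002468053.1 had 5, 23.44 and 50.82 reads in heat replicates 1 to 3, XR_002468054.1 had 0, 7.56 and 2.18, and XR_002468052.1 had 2, 3 and 0. The fractional values of XR_002468053.1 and XR_002468054.1 summed to 31 and 53 in heat replicates 2 and 3, both whole numbers. Both are members, so the pair had 0 reads in every control library by construction. No transcript outside the set was summed with them. XR_002468053.1 was at least 21.0-fold higher in heat. The limit was 13.7-fold without control replicate 2, 11.8-fold without heat replicate 3 and 31.8-fold without heat replicate 1, where it had the fewest reads.

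The other heat-only lncRNAs with more than 50 reads were XR_002469244.1, XR_002468875.1 and XR_002469155.1. XR_002469244.1, of the lncRNA gene LOC110494287, had 39.21, 21.11 and 13.22 reads in heat replicates 1 to 3. XR_002468875.1 had 21.7, 2.71 and 28.91 reads, and XR_002469155.1 had 22, 4 and 25. All were present in the 3 heat libraries, and the last pair were lowest in replicate 2. XR_002469155.1 was the heat-only lncRNA with the most reads among those whose counts were all whole numbers, at least 13.5-fold higher in heat (8.84-fold without control replicate 2). Its level was low, 0.123 ± 0.0737 FPKM (SD, n = 3).

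Further heat-only lncRNAs were uneven between the heat libraries. XR_002469697.1, of the lncRNA gene LOC110497715, had 27, 0 and 7.49 reads. XR_002468139.1 had 0, 3.97 and 12.58 reads, XR_002468879.1 had 0, 2.97 and 11.87, and XR_002468687.1 had 1, 14 and 0. For XR_002468687.1 a single library held nearly all reads. By contrast XR_002468474.1 was even, with 6, 6 and 4 reads, and all of its counts were whole. The remaining 16 heat-only lncRNAs had between 2.76 and 13.0 reads in all.

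The control-only set had no member as abundant as the leading heat-only pair. XR_002468831.1 had 37.37, 20.22 and 29.08 reads in control replicates 1 to 3 and 0 in each heat library. XR_002468439.1, of the lncRNA gene LOC110488560, had 32.14, 24.9 and 15.04 reads. Both were present in all 3 controls, at 0.550 ± 0.180 and 0.747 ± 0.280 FPKM (SD, n = 3). By the same floor, which covers counting error in the heat libraries only, their estimated counts were at least 36.3-fold and 30.2-fold lower in heat. The limits were 22.5-fold and 18.7-fold without heat replicate 1, and 23.2-fold and 19.3-fold without heat replicate 3.

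The next control-only lncRNAs lacked reads in a control library or had most of them in one. XR_002468872.1 had 0, 31.13 and 29.63 reads in control replicates 1 to 3, and XR_002469776.1 had 14.19, 0 and 29. XR_002468260.1 had 27.91, 0.68 and 1 read, and XR_002468133.1 had 2, 5 and 22. For these 2 the limit rests on a single library: it was 12.4-fold for XR_002468260.1 but 1.04-fold without control replicate 1, and 12.1-fold for XR_002468133.1 but 4.38-fold without control replicate 3. It was also lower without heat replicate 1 (7.68-fold and 7.53-fold) and without heat replicate 3 (7.93-fold and 7.77-fold).

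XR_002468880.1 had 16.59, 0 and 6.74 reads, and XR_002468987.1 had 0, 10 and 6.29. A further 4 were low but even, with whole counts in all 3 controls: XR_002468695.1 with 7, 4 and 3 reads, XR_002468913.1 (LOC110491867) with 3, 4 and 6, XR_002469487.1 with 6, 3 and 4, and XR_002469816.1 with 3, 6 and 1. The remaining 21 control-only lncRNAs had between 2 and 9.53 reads in all. No 2 control-only lncRNAs had neighbouring numbers.

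The limit against the floor was above 1-fold for 26 heat-only and 27 control-only lncRNAs. The other 10 had no more reads than the floor. With few reads such a limit does not place the fold itself above 1, since the counting error of those reads is not covered. XR_002469098.1, with 4 reads in all, had 1.06-fold. The limit was over 10-fold for 7 heat-only and 6 control-only lncRNAs. Without any one of the 3 control libraries it was over 10-fold for 4 heat-only lncRNAs, and without any one of the 3 heat libraries for 4 control-only lncRNAs, since fewer fragments were then searched at the temperature with no reads.

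**Figure D3:**
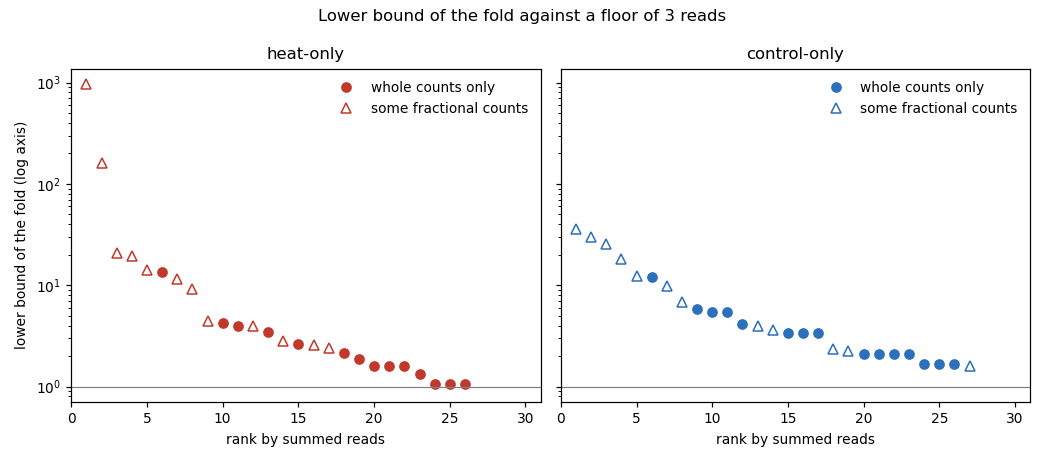
Lower limit of the fold (log axis) of heat-only lncRNAs in heat over control and of control-only lncRNAs in control over heat, against a floor of 3 reads over the group with none, ordered by summed reads; the 10 members with no more reads than the floor are left out. Filled circles have whole counts and open triangles some fractional counts. The limits run from 976 to 1.06, and most of those above 10 are triangles. They allow for no counting error in the group with reads.

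Fractional counts were concentrated among the members with the most reads. Of the 63, 25 (39.7%) had a fractional count in some library, beside 46.1% of the 725 other lncRNAs with reads. Among the 10 members with the most reads, 8 of the heat-only and 7 of the control-only lncRNAs had one. The median sum of reads was 34.5 for heat-only lncRNAs with a fractional count and 6 for those with whole counts, and 19.8 and 5 in the control set. For the 38 members with whole counts, the sum was at most 51 reads in heat and 29 in control. The 725 others had a median of 21.67 summed reads, and their share at like read sums is not given here. The concentration is thus not shown to be particular to the members.

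Neighbouring transcripts were therefore summed, a step chosen after the values were seen. A shared gene name or fractions with a whole sum tied 8 members, 1 heat-only and 7 control-only, to transcripts with reads at the other temperature. In blocks of consecutive numbers chosen by hand, another 5 heat-only lncRNAs, XR_002467885.1 to XR_002467887.1 and XR_002468875.1 and XR_002468879.1, stood next to such transcripts by number alone. Members outside these blocks were not searched this way, so the 5 are not a count over the sets. Heat-only XR_002469155.1 and control-only XR_002468527.1, for instance, stand next to XR_002469156.1 and XR_002468526.1. The log2 fold changes of these neighbours were 0.191 and 0.243 (adjusted p 0.714 and 0.569 in edgeR). The clearest case among the summed groups was XR_002468831.1. With its neighbour XR_002468832.1 it summed to 187, 99 and 166 reads in control replicates 1 to 3, whole numbers from fractional parts. It took 20%, 20.4% and 17.5% of the pair's reads there, and none in heat, where XR_002468832.1 alone had 73, 33 and 48 reads. The pair stood at 5.27 ± 1.77 reads per M fragments in controls and 1.39 ± 0.333 in heat (SD, n = 3), and the lowest control (3.30) lay above the highest heat library (1.77). This sum includes the selected XR_002468831.1, so part of the difference comes from the rule. XR_002468832.1 alone had 149.63, 78.78 and 136.92 reads in control replicates 1 to 3, and its adjusted p in edgeR was 0.073. The pair was not absent from heat.

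XR_002468439.1 shares the gene LOC110488560 with 2 other transcripts. It took 49.3%, 24.8% and 46.2% of the gene's reads in control replicates 1 to 3 and none in heat. The gene as a whole had 2.28 ± 1.11 reads per M fragments in controls and 1.34 ± 0.579 in heat (SD, n = 3). These groups overlapped. Part of the difference comes from the rule, since the sum includes the selected XR_002468439.1. XR_002468440.1, which held most of the gene's other reads, had a log2 fold change of -0.065 (adjusted p 0.963 in edgeR). The gene's sums were not whole numbers in any library. In heat the gene had reads, while by the estimated counts none were assigned to this transcript. Whether the transcript itself was absent, or its reads were assigned to the other transcripts of the gene, was not tested.

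XR_002469776.1 and its neighbour XR_002469777.1 summed to 54.00 reads in control replicate 1, the single library where either was fractional. Together they had 54.0, 21.0 and 29.0 reads in controls and 10, 1 and 16 in heat. This sum includes the selected XR_002469776.1, so part of the difference comes from the rule. XR_002469777.1 alone had 39.81, 21.0 and 0 reads in control replicates 1 to 3, which overlap its heat values. Its adjusted p in edgeR was 0.601. XR_002469776.1 took 26.3%, 0.0% and 100% of the pair's control reads, so its share of the pair changed from library to library within one group.

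A block of 9 consecutive numbers, XR_002468872.1 to XR_002468880.1, held members of both sets. XR_002468872.1 and XR_002468880.1 were control-only, and XR_002468875.1 and XR_002468879.1 were heat-only. Of the 9, 6 matched LOC110491745, which the reference table lists as protein-coding, so these are non-coding transcripts of a coding gene there; the heat-only pair had no match. The block had 1.61 ± 0.315 reads per M fragments in controls and 1.47 ± 0.757 in heat (SD, n = 3). Its summed level thus overlapped between the groups, while which of its transcripts held the reads differed between libraries of one group as well, as in control replicate 1, where XR_002468872.1 had none. Its sums were not whole numbers, and whether reads were also divided with coding transcripts was not tested.

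**Figure D4:**
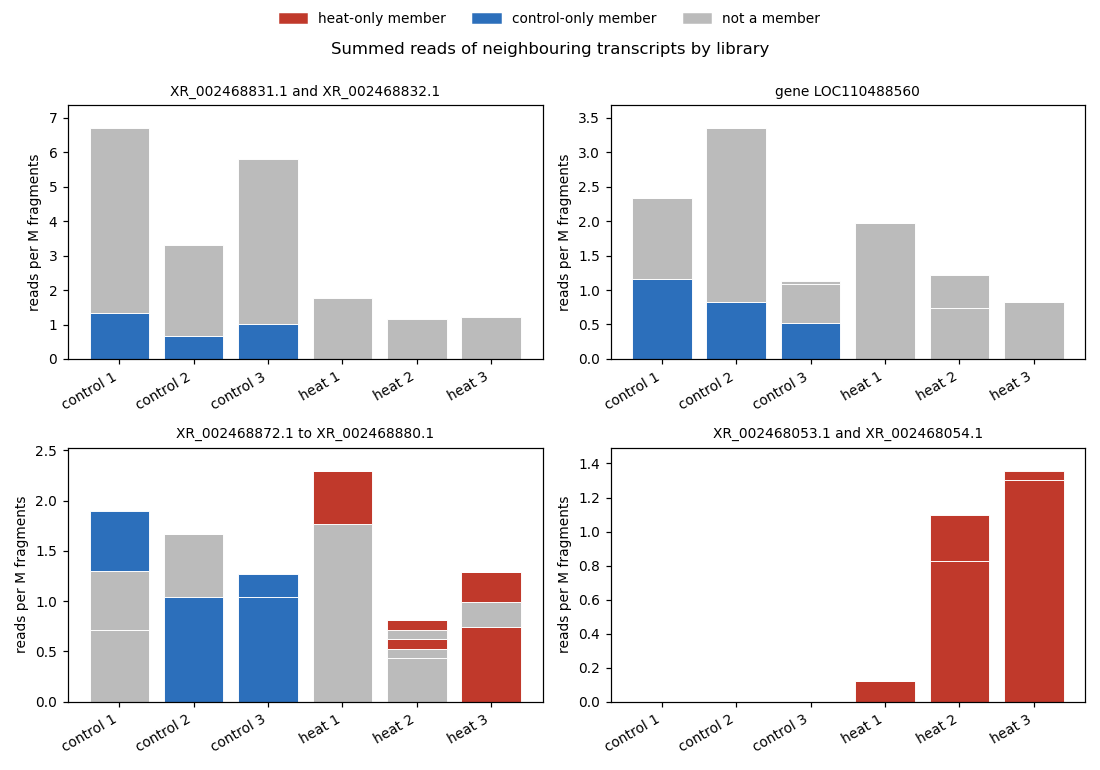
Summed reads per M fragments of 4 groups of neighbouring transcripts in each library, with each bar divided into its transcripts: heat-only members in red, control-only members in blue and other transcripts in grey. In 3 panels grey bars at the other temperature show reads of a pair, gene or block whose member is at 0. The pair XR_002468053.1 and XR_002468054.1 has no bar in any control library by construction, since both are members.

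Other groups had fewer reads in the member itself. XR_002469253.1, heat-only with 0, 6.37 and 2.63 reads, is 1 of 6 transcripts of LOC110494316. That gene had 2.90 ± 1.20 reads per M fragments in controls and 0.863 ± 0.194 in heat (SD, n = 3). The heat-only transcript thus belongs to a gene whose summed reads were fewer in heat. The transcripts holding most of the gene's reads, XR_002469254.1 and XR_002469259.1, were not called in edgeR (adjusted p 0.603 and 0.427). XR_002468490.1, control-only with 3.6, 0 and 2.02 reads, is 1 of 4 transcripts of LOC110488836, which had 4, 6 and 9 reads in controls and 0, 6 and 2 in heat. XR_002469037.1 had 3.63, 1.69 and 0 reads in controls, and with its neighbours XR_002469035.1 and XR_002469036.1 it made 5, 4 and 1 reads in controls and 3, 0 and 3 in heat. In each of these the sum holds reads at both temperatures.

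The members were mostly long transcripts. The length implied by count and FPKM had a median of 1937 bases in the heat-only set (200 to 4100) and 1538 bases in the control-only set (322 to 4257), beside 1216 bases for the other lncRNAs with reads. Those others include transcripts with reads in a single library, which the rule keeps out of the sets, so the medians are not of like groups. XR_002467886.1 came out at 2069 bases and XR_002468831.1 at 1833 to 1849. With few reads the rounding of FPKM to 2 decimals leaves a wide range: XR_002468367.1, with 2 reads, could have 2321 to 6707 bases. The 4100 bases belong to XR_002469108.1, which has 2.76 reads and could have 2998 to 7103.

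In the reference table (USDA_OmykA_1.1, by accession without its version) 376 of the 1498 lncRNAs matched a gene (25.1%), and among the 63 members 20 did. Of these, 17 are lncRNA genes there and 3 fall in protein-coding genes, XR_002468872.1 and XR_002468880.1 in LOC110491745 and XR_002469549.1 in LOC110496404. The gene spans of 7 members overlapped that of another coding gene. The nearest coding gene had a name other than a LOC number for only 4 members. XR_002469253.1 overlapped the span of vps9d1, XR_002468618.1 that of slc35b3, a transporter of activated sulfate into the Golgi in mammals, and XR_002468321.1 that of hoxa3a, a homeobox gene of head and trunk patterning. XR_002469098.1 lay next to ifrd2. Strand was not compared, and whether the counting used strand is not stated, so reads of an overlapping coding gene on the other strand cannot be told apart from those of these lncRNAs. The 4 named neighbours were compared with 6 lists, and none was on any of them. The lists were heat shock and chaperones, unfolded protein response, lipid and sterol, immune and acute phase, oxidative stress, and circadian genes. Neighbours under a LOC symbol could not be matched, so a list gene among them would be missed.

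Few members had enough reads for a test across the list. In edgeR's quasi-likelihood test 226 of the 1498 lncRNAs passed the filter on low counts, and 18 (7.96%) were called at an adjusted p under 0.05, 12 higher in heat (5.31%) and 6 lower (2.65%). Only 5 of the 63 members passed that filter, and all 5 were called: XR_002467886.1, XR_002467887.1 and XR_002469244.1 higher, and XR_002468831.1 and XR_002468439.1 lower. A member that passes has all of its reads in one group, and the test uses the contrast that chose the members, so nothing is read from this count. The calls over all tested lncRNAs numbered 7 without control replicate 1 or 3, 10 and 11 without heat replicate 2 or 3, and 13 and 22 without control replicate 2 or heat replicate 1. The neighbour XR_002468832.1, not a member, stayed above the threshold, with an adjusted p of 0.073 in edgeR. Its log2 fold change was -1.42 ± 0.37 (SE, back-calculated from the fold change and the F value of the test). All 11 heat-only members with reads in the 3 heat libraries, and all 8 such control-only members, lie apart from the other group by construction. Over the 1498, heat values lay wholly above control values for 3.34% of the lncRNAs and wholly below for 5.34%. The 1498 include the 710 with no read in any library, which cannot lie apart, so these shares are low.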

How the data were processed

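The 6 tables, 1 per liver library, give an estimated count and an FPKM value per lncRNA. The estimated counts were deposited by the authors without normalization, per the file headers and values. FPKM, given to 2 decimals, is the authors' scaling by length and by library total, per the file headers. Bowtie2 2.2.8 and TopHat2 2.1.1 were used, per the submitters' processing notes. No source used here names the quantifier, the build or whether strand was used. The extraction text of the labels names retinas, whereas the tissue label is liver. Tables held here for control replicate 1 and heat replicates 1 and 3 end inside a line, and the incomplete line was dropped.

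Library totals came from count, FPKM and exon lengths of 5 assembled transcripts in control replicate 2 and from ratios over 15 known ones. They differ from the totals of the tables, which hold lncRNAs alone. Intervals and floors cover counting error only, and the floors only that of the group at 0. Rounded counts were tested with edgeR 4.0.16 in R 4.3.3 (minimum count 10, TMM, robust quasi-likelihood fits, Benjamini-Hochberg, threshold 0.05), which was also tested on simulated data. DESeq2 1.42.0, limma 3.58.1 on log2(FPKM + 0.1) and log2(FPKM + 0.01), other scalings and each library left out were alternatives. Folds against a group at 0 use a floor of 3 counts over that group and the library totals. Sums were taken as whole within 0.02.

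Named in each set were the 12 members with the most reads, those with neighbouring numbers and the 4 with the fewest, and the 4 transcripts just outside. Members drawn on for gene groups and lengths were named after their values were seen. The members and lists were chosen with earlier results of these data known.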

Additional observations from a re-analysis of the deposited data

How the results depend on the processing

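The set sizes followed the rule closely. The 30 heat-only lncRNAs became 13 with a minimum of 3 reads, 9 with 5, 11 with reads in all 3 libraries and 106 with reads in at least 1. The 33 control-only lncRNAs became 20, 12 and 7 with a minimum of 2, 3 and 5 reads, 8 with reads in all 3 libraries and 129 with reads in at least 1. Leaving out 1 library gave 14 to 53 heat-only and 14 to 66 control-only lncRNAs. Fewer libraries to be absent from raise a size and fewer to be present in lower it, by construction. Allowing values under 1 read in the other group gave 32 and 33, and any value above 0 gave 31 and 37.

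The 18 calls over all tested lncRNAs became 35 with DESeq2 and 34 with limma on log2(FPKM + 0.1), and 7 to 22 with a library left out. The cause was not tested. With no filter on low counts there were 16 calls and 6 members called in place of 5. With a library left out 2 to 5 members were called, from which nothing is read, since the rule used the same contrast. Replicate numbers are shared by the groups. Deviations of same-numbered libraries correlated by -0.008, 0.015 and 0.034, and those of differently numbered ones by -0.064 to 0.056. No pairing was seen in these values, which cannot exclude one. With the replicate block there were 9 calls, 2 of them members.

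Of the named members, 22 had a limit above 4-fold. With a floor of 3 counts per library it was 12, by construction, and with a library left out 18 to 21. TMM-adjusted library sizes gave 23, and the limit of XR_002467886.1 was then 1135-fold. Depth limits all of these values: a member with 3 reads or fewer cannot be told from the floor. For members with a few more reads, the counting error of those reads is not covered.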

Other observations

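Many lncRNAs missed the sets because of a single library. In 63 transcripts at least 2 heat libraries had 1 read or more and exactly 1 control library had reads, and in 68 the reverse held. On the heat side XR_002468362.1 had the most reads, with 60.2, 25.89 and 73.53 in heat replicates 1 to 3, and 41.0 in control replicate 2 against 0 in the other controls. On the control side XR_002468376.1 had 97.22, 65.21 and 16.79 reads in control replicates 1 to 3, and 26.55 in heat replicate 3 against 0 in the other heat libraries. Another was XR_002469259.1, a transcript of the gene LOC110494316 that also holds the heat-only XR_002469253.1, with 37.16, 56.55 and 40.39 reads in controls and 0, 0 and 26.22 in heat. These 3 transcripts were named after their values were seen.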
